A study of Mus musculus with 8 samples.

Results

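The variable (V) segments of the mouse immunoglobulin heavy chain locus were taken as every GENCODE entry on chromosome 12 whose symbol starts with Ighv. There were 185 such entries of 51229 annotated genes on the autosomes. They carried 183 symbols, because Ighv5-8 and Ighv1-13 each had a second entry on the opposite strand. By annotation 113 were V genes, 70 were V pseudogenes and 2 were of another class. They lay between positions 113572927 and 116010093 of the mm10 build, 183 of them on the minus strand, with a median length of 434 bp. Each segment was read as its annotated body with 500 bp on either side, using the CpGs with at least 5 reads in every library.

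5-methylcytosine (5mC) had been measured by whole genome oxidative bisulfite sequencing, a chemistry that reads 5mC apart from 5-hydroxymethylcytosine. Spleens of C57BL/6J mice aged 6 to 8 weeks, pooled within each sex, gave the naive CD4+ T cells (CD4+CD62L+) and the resting B cells (CD43-). The labels gave 8 samples in 4 groups of 2, and each group had 1 deposited file, so the units of comparison were 4 libraries: female B, male B, female T and male T. No group carried a treatment or an engineered allele, and no library had a replicate of its own. The p-values for B against T below therefore do not measure a spread between replicates. They rest on how far the B against T difference varied between the sexes, drawn towards a spread shared by all gene windows.

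A heavy chain gene is built in the developing B cell by joining 1 V segment to a D and a J segment. The RAG recombinase cuts at a recombination signal sequence, a heptamer and a nonamer set apart by a spacer, which follows the 3′ end of each V segment. Joining brings the V segment next to the D segment and removes the DNA that lay between them from the chromosome. T cell precursors can join D to J at this locus, but they do not normally complete a heavy chain gene. CpG methylation at antigen receptor loci is known to differ between lineages and stages of lymphocyte development. The segments are ordered here by their distance from the J cluster, and those near it are called proximal and the others distal.

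The identity of the libraries was checked at promoters, as the level within 1 kb of the gene start. The 5 B cell genes Cd79a, Cd79b, Ms4a1, Blk and Fcrla stood at 8.36% to 26.5% in the B libraries and at 37.9% to 95.2% in the T libraries. The 6 T cell genes Cd3d, Cd3e, Cd3g, Cd247, Lck and Themis stood at 70.2% to 94.9% in the B libraries and at 0% to 7.65% in the T libraries. The mean depth at the 18214466 autosomal CpGs listed in all 4 libraries was 18.1 (female B), 14.8 (male B), 18 (female T) and 17.9 (male T) reads, and depth below is given relative to these means.

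Several of the methylation differences described below sit at the end of the V segment or just behind it. Shown first are 3 V segments in which a CpG behind the segment had low methylation in B cells and was nearly fully methylated in T cells. Each sequence is the coding strand, with the last 60 bases of the segment and the 140 bases that follow it, so that base 61 is the first base behind the annotated end. Capitals mark the CpGs. The heptamer CACAGTG follows the end directly in all 3. The intervals on chromosome 12 (mm10, minus strand) were chr12:114682492-114682691 for Ighv1-18, chr12:114746133-114746332 for Ighv1-22 and chr12:114788232-114788431 for Ighv1-26.
Ighv1-18: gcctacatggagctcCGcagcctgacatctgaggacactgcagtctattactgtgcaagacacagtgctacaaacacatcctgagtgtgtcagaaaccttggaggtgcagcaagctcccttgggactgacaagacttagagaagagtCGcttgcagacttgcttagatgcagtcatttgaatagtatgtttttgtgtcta
Ighv1-22: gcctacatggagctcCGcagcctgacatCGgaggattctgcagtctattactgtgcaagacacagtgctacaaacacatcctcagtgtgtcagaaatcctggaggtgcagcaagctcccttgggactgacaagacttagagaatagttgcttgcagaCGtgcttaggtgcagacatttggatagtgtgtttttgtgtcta
Ighv1-26: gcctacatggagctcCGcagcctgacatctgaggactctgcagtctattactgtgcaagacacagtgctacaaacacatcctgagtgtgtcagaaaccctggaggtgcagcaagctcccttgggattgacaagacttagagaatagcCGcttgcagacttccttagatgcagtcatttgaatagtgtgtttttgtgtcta
The next 3 are shown because they moved the other way, with CpGs at the same end partly methylated in B cells and lower in T cells. They lay at chr12:114657213-114657412 (Ighv1-15), chr12:114875164-114875363 (Ighv1-35) and chr12:115592970-115593169 (Ighv1-66), on the minus strand of mm10. Ighv1-35 is a pseudogene without the heptamer CACAGTG at its end, and the other 2 are V genes with it.
Ighv1-15: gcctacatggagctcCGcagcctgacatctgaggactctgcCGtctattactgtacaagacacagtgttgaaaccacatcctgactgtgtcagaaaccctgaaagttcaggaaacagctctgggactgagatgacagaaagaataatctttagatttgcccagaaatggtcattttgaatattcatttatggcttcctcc
Ighv1-35: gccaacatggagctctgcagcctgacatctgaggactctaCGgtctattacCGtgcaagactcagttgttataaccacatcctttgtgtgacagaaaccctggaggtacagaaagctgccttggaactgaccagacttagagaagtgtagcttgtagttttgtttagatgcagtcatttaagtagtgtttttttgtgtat
Ighv1-66: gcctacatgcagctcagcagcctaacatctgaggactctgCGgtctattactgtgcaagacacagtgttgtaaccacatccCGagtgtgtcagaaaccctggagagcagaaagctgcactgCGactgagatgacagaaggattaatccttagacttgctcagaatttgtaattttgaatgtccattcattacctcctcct
The sequences are close relatives, and Ighv1-15, Ighv1-18, Ighv1-22 and Ighv1-26 share a CpG at the same place, 44 bases before the end (counted back from the last base of the segment as 0).

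Of the 185 entries, 143 had at least 3 CpGs listed in all 4 libraries and could be tested. They held a median of 5 such CpGs. Counted as CpG observations, a tested segment had 17 to 541 reads in the female B library (median 57.0), 16 to 353 in the male B library (median 51.0), 31 to 653 in the female T library (median 78.0) and 35 to 472 in the male T library (median 84.0). Of the 42 that did not pass, 13 had fewer than 3 CpGs in any library and Ighv1-48 and Ighv1-77 were among them with none. The other 29 were short of CpGs listed in every library. The loss was uneven along the locus. When all 185 entries were put in 5 groups of 37 by their distance from the J end, 17 failed in the group nearest to J, 8 in the second, 5 in the third, 5 in the fourth and 7 in the farthest. In the nearest group 73.4% (female) and 52.9% (male) of the CpGs listed in any library were listed in the B libraries, against 97.6% and 99.7% in the T libraries. Ighv2-2, a V gene 159 kb from J, shows the limit of the filter: its 5 CpGs were all listed in both T libraries, 3 of them in female B cells and 0 in male B cells.

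Proximal V segments were covered by far fewer reads in B cells than in T cells, and the shortfall shrank with distance from the J end until little of it was left at the distal end. In the nearest group, which spanned 143 to 519 kb from J, the median B over T depth ratio of the 20 tested segments was 0.461 in females and 0.424 in males. In the second group (535 to 1033 kb, 29 tested) it was 0.535 and 0.559. In the third (1039 to 1383 kb, 32 tested) it was 0.675 and 0.703, and in the fourth (1387 to 1915 kb, 32 tested) 0.756 and 0.829. In the farthest group, which reached 2580 kb, the 30 tested segments had a median of 0.999 in females and 0.908 in males. All gene windows on the autosomes had a median of 0.991 and 0.987. Reads come from the DNA of many cells, so a low ratio does not tell in how many cells, or on which of the 2 chromosomes, the DNA was less covered.

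**Figure D1:**
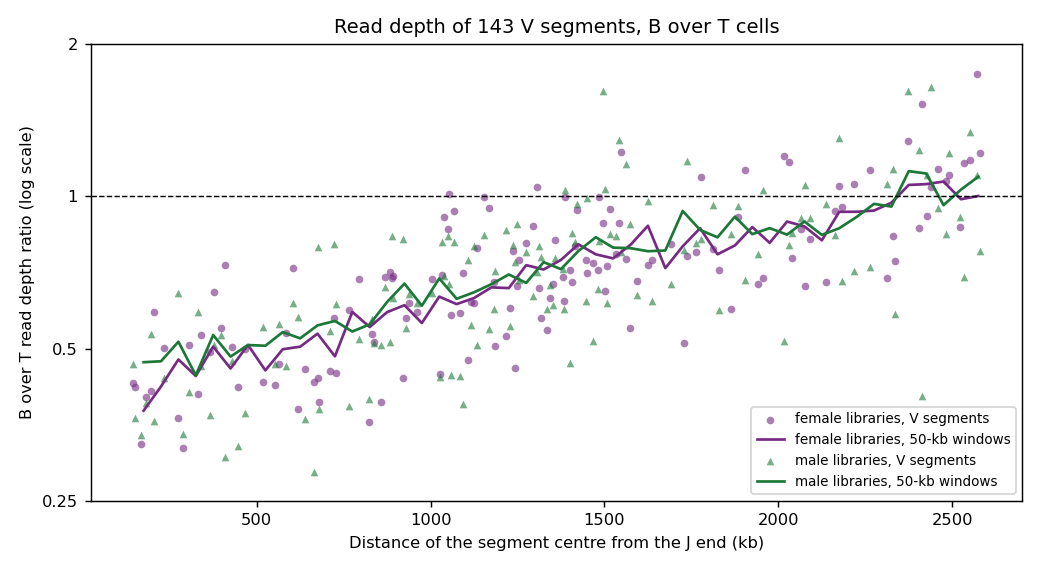
B over T read depth ratio (log scale) of the 143 tested V segments against the distance of the segment centre from the J end in kb, for female libraries (circles) and male libraries (triangles). Lines show 50-kb windows of the V region, from the CpGs listed in all 4 libraries only. The ratios rise from about 0.4 near J to about 1 at the far end in both sexes, and the windows run from 0.377 to 1.07 in females and from 0.443 to 1.12 in males.

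The same order could be read from single segments. Ighv5-2, a proximal V gene often used in the first antibodies made, had 0.331 and 0.376 times the autosomal mean depth in the female and male B libraries and 0.788 and 1.03 times in the T libraries. Ighv5-4 had 0.441 and 0.449 in B cells and 1.36 and 1.33 in T cells, a B over T ratio of 0.323 in females (95% exact binomial interval 0.240 to 0.431) and 0.337 in males (0.244 to 0.460). For both genes the B libraries lay well below the T libraries with no overlap. The tested segment nearest to J, Ighv2-1, stood at 0.449 and 0.581 in B cells and at 1.05 and 1.25 in T cells, and its neighbours Ighv2-3 (0.460 and 0.452 against 1.15 and 1.16) and Ighv5-6 (0.428 and 0.517 against 1.04 and 0.966) were alike in order. By the mean of both sexes on the log scale, the lowest ratio among the tested segments was that of Ighv2-6, with 0.317 and 0.339. Ighv5-4 came next and then Ighv9-1, with 0.429 and 0.285. Intervals of this kind cover counting error only, and they are too narrow where 1 read crosses more than 1 CpG. 

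Single segments further from J varied. Ighv11-2, which encodes antibodies against phosphatidylcholine made by B-1 cells, lay 619 kb from J and had 0.491 and 0.759 times the mean depth in B cells and 1.29 and 1.32 times in T cells. This was as large a shortfall as that of Ighv5-6 near J. Ighv12-3, the other V gene known for such antibodies, lay at 937 kb with 0.533 and 0.587 in B cells and 0.868 and 0.915 in T cells. Ighv1-53 at 1729 kb had 0.497 and 0.779 against 0.970 and 0.994. At the far end the order of the libraries was mixed. Ighv1-72, the V gene that dominates the response of C57BL/6 mice to the hapten NP, lay at 2328 kb with 0.615 and 0.716 in B cells and 0.736 and 0.632 in T cells, so the groups overlapped. By the mean of both sexes on the log scale, the highest ratios belonged to Ighv1-74 (1.29 in females and 1.62 in males), Ighv1-85 (1.74 and 1.10) and Ighv1-78 (1.04 and 1.64). The 5 tested segments farthest from J, Ighv1-82 to Ighv1-86, had fitted log2 B over T depths of -0.17, -0.16, 0.33, 0.47 and -0.04 in that order, and none passed the test described next.

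With edgeR's quasi-likelihood test across 49569 gene windows, 41 of the 143 tested segments were called lower in B cells (adjusted p under 0.05 and a difference of at least 0.5 on the log2 scale) and 0 higher. The background share of windows called lower in B was 0.28% of all windows and 0.634% of the windows with a body of at most 2000 bp, against 28.7% of the tested V segments. The background called higher in B was 0.288% and 0.588%. Of the calls, 19 fell in the nearest group, 17 in the second, 4 in the third and 1 in the fourth. All 46 tested segments nearer than 1000 kb had a ratio below 1 in both sexes, and 35 of them were called. A ratio below 1 in both sexes was found in 17292 of all 49569 windows and in 5918 of the 19564 windows with a body of at most 2000 bp. The fitted log2 B over T depth was -1.60 for Ighv5-4 (adjusted p = 0.000126), -1.35 for Ighv5-2 (adjusted p = 0.00103), -1.22 for Ighv7-1 (adjusted p = 0.00754), -1.09 for Ighv11-2 (adjusted p = 0.00321) and -0.73 for Ighv6-3 (adjusted p = 0.0417). Ighv12-3 (log2 -0.67, adjusted p = 0.159), Ighv1-53 (log2 -0.66, adjusted p = 0.158) and Ighv1-72 (log2 -0.04, adjusted p = 0.94) did not pass. Single calls were fragile: 27 segments passed without the female B library, 16 without the male B library, 14 without the female T library and 7 without the male T library, and DESeq2 called 1 when run without its filter on low counts. The direction held where the calls did not: the weakest log2 ratio of any of the 41 under any alternative tried was -0.25.

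The filter on listed CpGs worked against the size of the shortfall, because CpGs with under 5 reads in a B library were left out. Over all 37 entries of the nearest group, the summed reads gave a B over T ratio of 0.371 in females and 0.267 in males when unlisted CpGs were counted as 0 reads, and of 0.436 and 0.403 when they were counted as 4 reads, the most that they could have had. With 0 reads in one cell type and 4 in the other, the extremes were 0.369 to 0.438 in females and 0.267 to 0.403 in males. In the farthest group these extremes were 0.948 to 0.963 and 0.924 to 0.947.

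Read along the whole locus in 50-kb windows, the depth of the B libraries stepped down at the J end and climbed back over the V segments. The T libraries, at medians of 1.13 and 1.15 times the mean over the constant genes and of 0.878 and 0.880 over the V segments, fell less. The 4 windows over the constant genes had a median ratio of 0.891 in females and 0.881 in males, and the 49 windows over the V segments 0.731 and 0.741. Of the 2 windows that hold the D segments, the first kept 3 of its 254 CpGs in all 4 libraries, and the second had a ratio of 0.380 in both sexes. With unlisted CpGs as 0 reads their ratios were 0.0287 and 0.193 in females and 0.0236 and 0.166 in males. With unlisted CpGs as 4 reads they were 0.286 and 0.331 in females and 0.331 and 0.371 in males. Outside the locus the medians were 0.978 and 0.919 on the J side and 1.02 and 1.03 on the V side. None of the 20 D segments had 3 CpGs listed in every library. Summed over them, the ratio was 0.0523 in females and 0.0351 in males with unlisted CpGs as 0 reads, and at most 0.267 and 0.290 under the extremes above. Both Adam6 genes, fertility genes on the J side of the V segments (Adam6b among the D segments, Adam6a beyond them), were called lower in B cells, with ratios of 0.461 and 0.522 for Adam6a and of 0.563 and 0.390 for Adam6b. Of the 8 constant genes 0 were called, with ratios from 0.702 (Ighm in males) to 1.13 (Ighg2b in females). In 2 windows, centred 1325 and 1375 kb from J, T depth rose to between 1.12 and 1.23 times the mean, while it lay at 0.699 to 1.05 times in the other V windows. B depth was higher there too, at 0.799 to 0.888 times against 0.602 to 0.644 in the windows on either side, and the ratios of 0.716 to 0.748 lay near the V median.

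**Figure D2:**
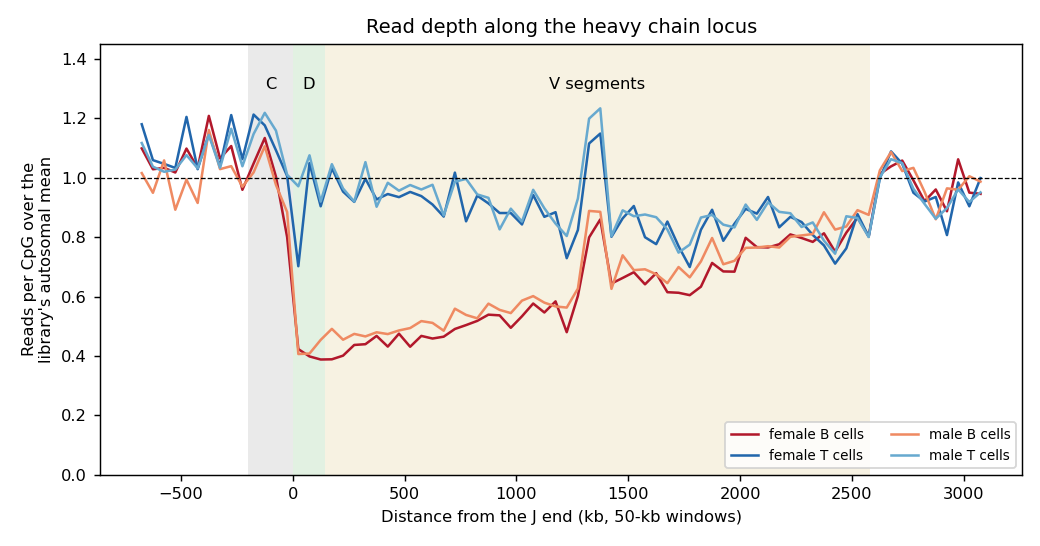
Reads per CpG relative to each library's autosomal mean (vertical axis) in 50-kb windows along the heavy chain locus and 500 kb on either side (horizontal axis, distance from the J end in kb), for the 4 libraries; shading marks the constant (C), D and V parts. Only CpGs listed in all 4 libraries are used, which leaves few over the D segments, and the D part is shaded up to the first V segment. The B libraries drop to about 0.4 there and return to the T level at the far end of the V segments.

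Over 143 segments Spearman's rho between the depth ratio and the distance from J was 0.76 in females and 0.72 in males, as a description across segments that share their libraries. T depth was lower at the far end (rho -0.21 in females and -0.24 in males): its median was 1.03 and 1.06 times the mean in the nearest group and 0.898 and 0.974 in the farthest, while that of B depth was 0.459 and 0.465 in the nearest and 0.876 and 0.855 in the farthest. Near-identical sequence can draw reads from one segment to another. A copy of at least 95% identity over at least 80% of the window was found elsewhere on the autosomes for 38 of the 143 tested segments, and without these the median ratio was 0.451 in the nearest group and 0.900 in the farthest, against 0.464 and 0.892 with them (both sexes averaged on the log scale).

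Proximal and distal segments also belong to different families. Family 1 (J558, the largest) began 922 kb from J and reached the far end, while families 5 and 2 lay within 890 and 450 kb of J. Of the tested segments of family 5, 12 of 13 were called lower in depth in B cells, as were 5 of 6 of family 2, 4 of 7 of family 3 and 3 of 77 of family 1. Within family 1 alone the median ratio was 0.664 in females and 0.710 in males in the third group (27 tested), 0.781 and 0.829 in the fourth (26 tested) and 1.05 and 0.946 in the farthest (23 tested). In the second group the median ratio was 0.525 in females and 0.613 in males for 8 pseudogenes, and 0.535 and 0.549 for 21 V genes. In the farthest group the sexes parted, with 1.13 in females and 0.769 in males for 9 pseudogenes and 0.934 and 1.03 for 21 V genes. 

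The methylation level of V segments covered the whole scale, and its median was below that of other short gene windows. The median over the tested segments was 72.3% in female B, 73.7% in male B, 68.8% in female T and 69.4% in male T cells, against medians of 89.4% to 90.6% over all windows with a body of at most 2000 bp. In T cells 15 segments lay under 20%, 69 between 20% and 80%, and 59 above 80%. Pseudogenes were more methylated than V genes, with medians of 87.7%, 87.0%, 88% and 86.4% (female B, male B, female T, male T) against 65.6%, 62.5%, 58.7% and 62.5%. The farthest group had the lowest medians of the 5, at 42.5% and 48.8% in B cells and 37.0% and 40.1% in T cells. Among families with at least 4 tested segments, family 9 had the lowest medians (24.8% to 36.9% over the 4 libraries). Families 10 (90.5% to 96.6%) and 3 (84.9% to 93.5%) were high, family 3 above family 10 in female B cells and below it in the other libraries. No test was made of these differences between groups of segments.

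The low levels sat at the 3′ end of the segment. In V genes the pooled level was 68.7% and 70.9% in B cells and 69.9% and 70.4% in T cells (females first) from 199 to 100 bp before the end. It was 35.1%, 35.1%, 35.7% and 37.6% in the last 100 bp, and 23.4%, 19.4%, 27.4% and 28.7% in the first 100 bp behind the end, which hold the recombination signal. It was 33.5%, 31.3%, 35.0% and 31.9% in the next 100 bp, where bins of 50 bp parted into 14.6%, 12.1%, 14.5% and 8.71% from 101 to 150 bp (17 CpGs), the lowest of these bins near the end, and 50.7%, 50.5%, 54.5% and 53.6% from 151 to 200 bp. From 401 to 500 bp behind the end it had returned to 78.9%, 79.8%, 85.1% and 84.5%. All 4 libraries thus dipped at the same place. On the promoter side, the 100 bp before the gene start stood at 67.5%, 64.1%, 73.7% and 75.2%. The 100 bp upstream of these stood at 70.0%, 73.8%, 73.2% and 72.0%, and the first 100 bp of the gene at 77.1%, 77.9%, 75.1% and 75.8%. Of these bins, that before the start was the lowest in the B libraries but not in the T libraries. In pseudogenes the 100 bp behind the end stood at 63.3%, 62.7%, 59.3% and 61.5%. The heptamer CACAGTG followed the annotated end directly in 81 of 113 V genes and in 25 of 70 pseudogenes, and the nonamer ACAAAAACC was found on the coding strand within 60 bp behind the end in 3 of each.

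**Figure D3:**
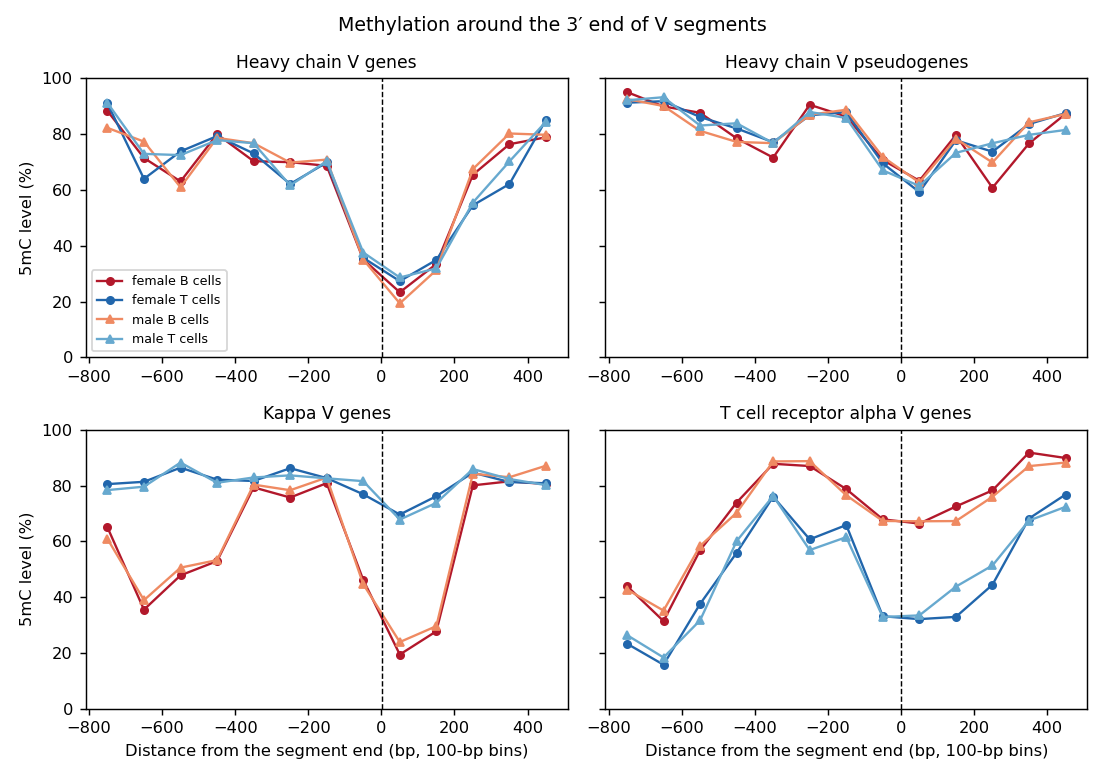
Pooled 5mC level in percent (vertical axis) in 100-bp bins around the 3′ end of V segments (horizontal axis, distance from the end in bp, negative inside the segment) for the 4 libraries, in heavy chain V genes, heavy chain V pseudogenes, kappa V genes and T cell receptor alpha V genes. Heavy chain V genes dip to between 19.4% and 28.7% behind the end in all 4 libraries, kappa V genes dip to 19.4% and 23.9% in the B libraries but stand at 69.6% and 67.8% in the T libraries, and T cell receptor alpha V genes are lower in T cells.

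The dip could be followed segment by segment. Both a CpG within 100 bp of the end and 1 more than 300 bp away were listed in 74 V genes, and the CpGs near the end were lower in all 4 libraries in 52 of them and higher in all 4 in 3. The medians near the end were 26.1% and 21.9% in B cells and 15.2% and 21.4% in T cells, against 79.7%, 80.6%, 85.3% and 82.5% further away. Among 30 pseudogenes the corresponding counts were 14 and 5. These distances were chosen after the profile had been seen. Kappa V genes of chromosome 6 and T cell receptor alpha V genes of chromosome 14, read the same way, differed between the cell types at this end and away from it. Within 100 bp of the end the pooled level of kappa V genes was 37.1% and 38.1% in B cells and 74.6% and 77.3% in T cells. In T cell receptor alpha V genes it was 67.1% and 66.6% in B cells and 34.3% and 34.3% in T cells. More than 300 bp away the levels were 69.1% and 69.0% in B cells and 84.4% and 82.9% in T cells for kappa, and 68.0% and 66.8% against 49.8% and 50.3% for T cell receptor alpha. In heavy chain V genes the level near the end was 31.8% and 30.3% against 33.2% and 35.1%, and that further away 77.7% and 77.7% against 77.9% and 79.7%. Within 50 bp of the end it was 26.9% and 25.4% against 23.3% and 25.8%, so the order of B and T in females turned with the width. The 3 loci were not tested against each other.

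CpGs shared by several segments near the end were not all low. The CpG 97 bases before the end, listed in 14 segments, stood at 76.8% and 78.5% in B cells and 76.1% and 80.1% in T cells, and that 44 bases before it, listed in 11, at 66.1% and 62.3% against 57.2% and 62.5%. The CpG 19 bases before the end was listed in 33 segments, all of family 1, and its pooled level was 26.5% and 27.9% in B cells and 20.4% and 19.4% in T cells. A CpG 72 bases behind the end was listed in 8 segments, mostly of families 2, 4 and 7, with 25.3% and 27.1% in B cells and 10.7% and 12.7% in T cells. In families 2, 5 and 7, 11 V genes between 149 and 793 kb from J carry the letters GGGGGCGC within 100 bp behind the end, on either strand. The same letters were found in 0.0668% of 100-bp windows taken every 1000 bp along chromosome 12. They are shown in Ighv2-3, at chr12:113611047-113611246 of mm10 (minus strand, same layout, CpGs in capitals), where the CpG within them was nearly unmethylated in both cell types.
Ighv2-3: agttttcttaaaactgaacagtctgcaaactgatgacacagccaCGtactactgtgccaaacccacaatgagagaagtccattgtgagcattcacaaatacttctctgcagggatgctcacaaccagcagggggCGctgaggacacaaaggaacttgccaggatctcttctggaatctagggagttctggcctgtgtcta
Its CpG 75 bases behind the end had 0 methylated of 5 reads in female B, 0 of 7 in male B, 0 of 25 in female T and 1 of 20 in male T cells. The low level was not confined to these letters. The CpG 252 bases before the end had 1 of 6 and 0 of 5 in B cells and 2 of 19 and 4 of 23 in T cells. That 633 bases before it had 2 of 14 and 0 of 8 against 1 of 18 and 2 of 19. Whether the letters go with a low level in the segments that carry them was not tested. The promoter octamer ATGCAAAT, or its reverse complement, lay within 250 bp before the gene start in 90 of 113 V genes and 37 of 70 pseudogenes. Of 32851 RefSeq promoter windows of 300 bases (GRCm38.p6 build), 1.74% hold it.

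Between B and T cells the level of V segments differed little at the median, but the differences spread more widely than in other short gene windows. Of the tested segments, 14 were called different, in both directions, 13 of them in family 1. All 14 lay in the 3 groups farthest from J, where most tested segments were of family 1. Its share there was 27 of 32, 26 of 32 and 23 of 30, from the nearer to the farther group. The 13 of 14 are thus not far from the share of family 1 in these groups, and the excess was not tested. The B minus T difference had a median of 1.46 points over the tested segments, with 50% of the segments between -4.62 and 9.54 points. All windows with a body of at most 2000 bp had a median of 0.777, with 50% of them between -0.95 and 2.83 points. V segments hold few CpGs, and how much of their wider spread is counting error was not tested. The median over the V segments was -0.51 points in the gene body alone, 0.539 as an unweighted mean of CpGs, 0.803 without near-identical copies and 0.889 without the male B library, so its sign depended on the window. By edgeR's quasi-likelihood test on methylated and unmethylated reads across 49569 windows, 10 segments were called higher in B cells and 4 lower (adjusted p under 0.05 and a difference of at least 20 points). The background was 1.59% higher and 0.367% lower of all windows, and 2.4% and 0.746% of windows with a body of at most 2000 bp. Among the tested V segments the shares were 6.99% and 2.8%. With no minimum difference, 24 of the 143 segments and 11087 of the 49569 windows had an adjusted p under 0.05 by the same test. At an unadjusted p under 0.05 the shares were 29.4% of the segments and 31.4% of all windows. By p alone the V segments were thus not above the background, and the excess holds for differences of at least 20 points. For comparison, 0 of 127 tested kappa V segments were called higher in B and 26 lower, and of 73 tested T cell receptor alpha V segments 38 were called higher and 1 lower. All 14 heavy chain calls lay at least 1135 kb from J, in the 3 groups farther away. In the 2 nearest groups 0 of 49 segments were called, where depth was lowest in B cells. At the shares of 2.4% and 0.746% of short windows few calls would fall among 49 segments, so this 0 is near the background. Whether the low B depth there limited the calls was not tested.

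**Figure D4:**
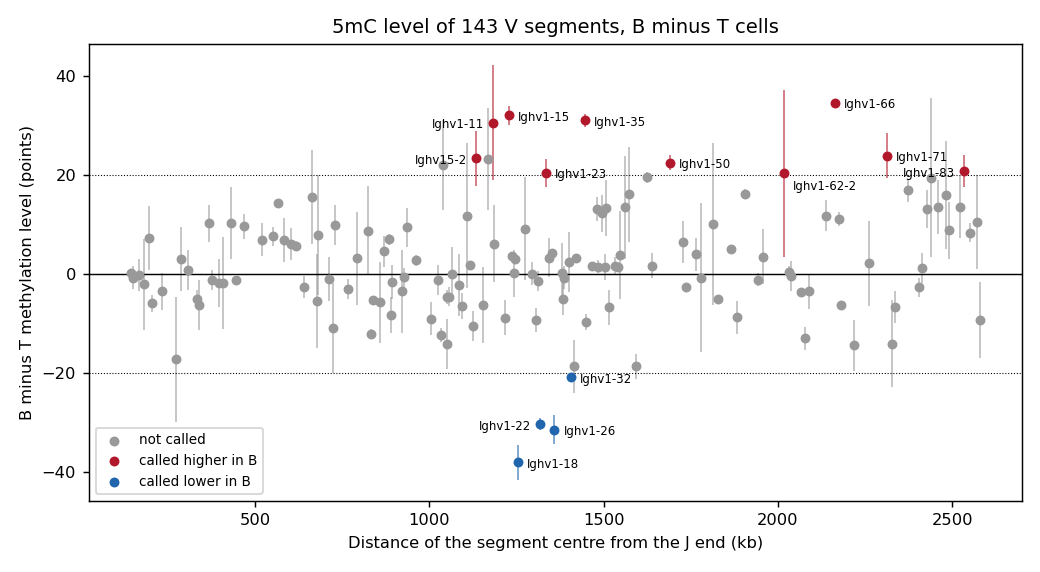
B minus T methylation level in points (vertical axis, mean of both sexes, with a bar from the female to the male difference) of the 143 tested V segments against distance from the J end in kb (horizontal axis), with the 10 segments called higher in B in red and the 4 called lower in blue. Dotted lines mark 20 points, and all 14 called segments lie at least 1135 kb from J.

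The 4 segments called lower in B cells were near neighbours, spread over 153 kb that held 17 annotated entries of family 1. Ighv1-23, between Ighv1-22 and Ighv1-26, was called the other way, higher in B cells. Ighv1-18 stood at 56.4% and 62.8% in B cells and at 98.1% and 97.4% in T cells, a difference of -38.1 points (adjusted p = 1.24e-05). Ighv1-26 stood at 66.7% and 60.2% in B cells and at 95.2% and 94.6% in T cells (-31.5 points, adjusted p = 4.04e-08). Ighv1-22 stood at 64.4% and 61.7% against 93.6% and 93.3% (-30.4 points, adjusted p = 0.000149), and the pseudogene Ighv1-32 at 73.7% and 72.3% against 95.2% and 92.5% (-20.9 points, adjusted p = 0.00102). In each the B libraries lay together, well below the T libraries, by these levels, in which a CpG weighs by its reads. The CpGs of Ighv1-32 differed by -51.1, -4.57, 4.2 and -14.3 points. The first of these, 88 bases behind the end, had the most reads of them in female B cells. How far the call of Ighv1-32 rests on this weighting was not tested. Ighv1-26 was covered at 1.72 and 1.91 times the mean in T cells, and a copy of its window with 95.1% identity was found elsewhere. Ighv1-22 has such a copy too, and Ighv1-18 and Ighv1-32 have none. The part of copies in these results was not tested. Ighv8-4 was next (-18.7 points, adjusted p = 0.0178) but fell short of 20 points.

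In each of the 4 the difference was largest at 1 CpG behind the end, the last capital pair of the first 3 sequences above. It lies 88 bases behind the end in Ighv1-18, Ighv1-26 and Ighv1-32 and 98 bases behind it in Ighv1-22. In Ighv1-26 this CpG had 4 methylated of 28 reads in female B and 4 of 28 in male B cells, against 35 of 37 in female T and 42 of 43 in male T cells. In Ighv1-18 it had 1 of 11 and 4 of 13 in B cells against 15 of 15 and 29 of 29 in T cells. In Ighv1-22 it had 1 of 13 and 2 of 13 against 17 of 19 and 17 of 18, and in Ighv1-32 11 of 24 and 2 of 13 against 18 of 20 and 11 of 15. The female B library of Ighv1-32 stood higher than the other B values. Ighv1-19, which had too few CpGs to be tested, showed the same at its CpG 88 bases behind the end, with 1 of 11 and 0 of 9 in B cells against 18 of 18 and 11 of 12 in T cells. 

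The remaining CpGs of these segments differed less. The CpG 44 bases before the end had 26 of 38 and 15 of 20 methylated reads in B cells and 42 of 42 and 42 of 44 in T cells in Ighv1-26, and 9 of 14 and 5 of 12 against 17 of 17 and 26 of 27 in Ighv1-18. In Ighv1-22 it was methylated in every library, with 13 of 13 and 9 of 10 in B cells and 20 of 21 and 19 of 19 in T cells. Over the 7 segments with a listed CpG 88 bases behind the end, the pooled level was 26.5% and 24.8% in B cells and 68.0% and 75.7% in T cells. Ighv1-18, Ighv1-19, Ighv1-26 and Ighv1-32, described above for this CpG, are among the 7, so the pooled gap in part restates them. The other 3 were Ighv1-36, Ighv1-41 and Ighv1-71. At Ighv1-41 the order was the other way, with 6 of 10 and 9 of 15 methylated reads in B cells and 5 of 18 and 6 of 15 in T cells, and at Ighv1-36 there were 5 of 12 and 4 of 7 against 11 of 14 and 13 of 13. Ighv1-71 was low in all 4, with 2 of 17 and 3 of 20 methylated reads in B cells and 0 of 28 and 0 of 21 in T cells.

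**Figure D5:**
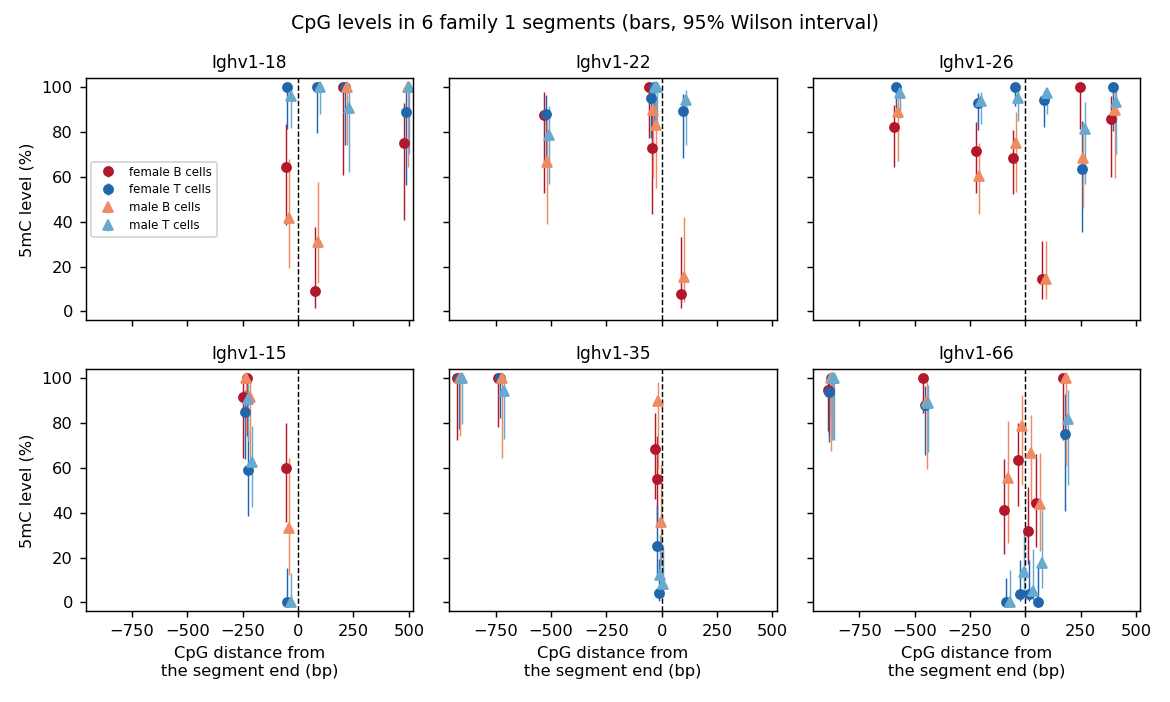
5mC level in percent (vertical axis) of each CpG listed in all 4 libraries in 6 V segments of family 1, against its distance from the segment end in bp (horizontal axis; the points of 1 CpG are drawn side by side), with 95% Wilson intervals for counting error. In the upper row the CpG 88 or 98 bases behind the end is low in both B libraries and high in both T libraries, and in the lower row CpGs at the end are low in both T libraries.

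The segments higher in B cells were spread from 1135 to 2534 kb from J. Ighv1-66 stood at 68.9% and 74.7% in B cells and at 34.8% and 39.7% in T cells, a difference of 34.6 points (adjusted p = 4.77e-06). Its CpG 82 bases before the end had 7 of 17 and 5 of 9 methylated reads in B cells and 0 of 31 and 0 of 23 in T cells. The CpG 19 bases before the end had 14 of 22 and 11 of 14 against 1 of 26 and 3 of 22, and the CpG 22 bases behind it, within the spacer of the recombination signal, 8 of 25 and 12 of 18 against 1 of 26 and 1 of 20. The whole end of this segment was thus low in T cells and partly methylated in B cells.

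Ighv1-15 stood at 81.6% and 78.8% in B cells and at 47.6% and 48.6% in T cells (32.1 points, adjusted p = 0.00267). Its CpG 44 bases before the end had 9 of 15 and 3 of 9 methylated reads in B cells and 0 of 21 and 0 of 26 in T cells. The CpG at that place in Ighv1-18, a near neighbour, was nearly fully methylated in the same T libraries. The pseudogene Ighv1-35 stood at 76.2% and 76.2% against 46.4% and 43.9% (31.0 points, adjusted p = 0.00101), with 13 of 19 and 9 of 10 methylated reads in B cells at its CpG 19 bases before the end and 7 of 28 and 3 of 25 in T cells. Ighv1-11 stood at 59.2% and 79.1% against 40.3% and 36.8% (30.6 points, adjusted p = 0.00371). Copies of at least 95% identity exist for Ighv1-15 and Ighv1-35 and were not found for Ighv1-11 and Ighv1-66.

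The other 6 segments called higher in B were Ighv1-71, Ighv15-2, Ighv1-50, Ighv1-83, Ighv1-23 and Ighv1-62-2, with differences of 20.3 to 23.9 points. In Ighv1-62-2 the female T library stood alone, at 36.5% against 67.6% in male T and 73.7% and 71.1% in the B libraries (adjusted p = 0.0337), and without it the difference was 4.78 points and not called. Ighv1-23 had 2.34 and 2.24 times the mean depth in T cells and 1.27 and 1.34 times in B cells, the highest T depth among the tested segments, and was the only segment called for both measures. The calls of Ighv1-18, Ighv1-22, Ighv1-26, Ighv1-35 and Ighv1-66 held under every alternative that kept the segment, whereas that of Ighv15-2 was lost under 5 of 8, of Ighv1-62-2 under 5 of 8, of Ighv1-83 under 4 of 8, of Ighv1-11 under 3 of 7 and of Ighv1-32 under 3 of 8. Leaving out the female B, female T or male T library ended the call of Ighv15-2, leaving out either male library ended those of Ighv1-11 and Ighv1-83, and leaving out female T ended those of Ighv1-32 and Ighv1-50. Leaving out male B ended the call of Ighv1-23 (17.7 points), and leaving out either B library ended that of Ighv1-62-2. With 1000 bp on either side the calls of Ighv1-15 (17.6 points), Ighv1-23 (8.31 points), Ighv15-2, Ighv1-32, Ighv1-62-2 and Ighv1-83 were lost. With limma those of Ighv1-71, Ighv15-2, Ighv1-11, Ighv1-62-2 and Ighv1-83 were lost, and in the gene body alone that of Ighv1-32.

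V segments often named in studies of the heavy chain repertoire did not stand out in methylation, apart from Ighv1-26. Ighv5-2 stood at 70.4% and 68.0% in B cells and 68.8% and 71.1% in T cells, so the groups overlapped. Ighv6-3 was almost fully methylated in all 4 libraries (98.8%, 92.4%, 95% and 90.8%), and Ighv7-1 was low (37.8%, 35.7%, 25.7% and 28.6%). Ighv1-53 was low as well, at 25%, 26.1%, 14.3% and 23.9%. Ighv1-72 stood at 26.9% and 17.6% in B cells and 32.3% and 40.5% in T cells (adjusted p = 0.0973).

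Spearman's rho between the depth ratio and the B minus T difference was 0.09 over 143 segments, and between the B minus T difference and distance 0.17. The B minus T differences of the 2 sexes had a rho of 0.58, and the T levels of the 2 sexes a rho of 0.95. No segment was called for a difference between the sexes in its B minus T level by edgeR's quasi-likelihood test with cell type by sex in place of sex, where the background share called was 0%, and none for depth. At an unadjusted p under 0.05 there were 6 and 4 of the 143 (4.2% and 2.8%), against 3.96% and 2.59% of all windows.

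Among the neighbours of the V segments the J segments differed most between the cell types. The 3 J segments that could be tested, Ighj2, Ighj3 and Ighj4, stood at 0% to 8.45% in B cells and at 83% to 94.7% in T cells, and all 3 were called lower in B. With 500 bp on either side their windows overlap, so the 3 calls are not independent of each other. Of the 8 constant genes and the 2 Adam6 genes 0 were called for methylation. The 12 genes of V(D)J joining, among them Rag1 and Rag2 for the recombinase, Dntt for the enzyme that adds bases at the joints, and Lig4 and Xrcc4 for the ligase, gave 0 calls for methylation and 0 for depth, with median depth ratios of 1.02 in females and 1.02 in males. The background shares called were 1.59% and 0.367% for methylation and 0.288% and 0.28% for depth (higher and lower in B), so 0 of 12 is near the background. For methylation this holds at the minimum of 20 points only. With no minimum difference, Hmgb1, Dclre1c, Lig4, Xrcc6, Dntt, Xrcc4 and Nhej1 had an adjusted p under 0.05 by edgeR's quasi-likelihood test. All of these were higher in B, by 1.82 (Xrcc4) to 10.8 points (Lig4). By the same mark 11087 of all 49569 windows passed.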

How the data were processed

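The deposited files listed 1 CpG per line with its methylation level as a fraction and the count of reads behind it, made by the authors from oxidative bisulfite reads, and only CpGs with at least 5 reads were listed. Per the submitters' processing notes, Trim Galore, FastQC and Bismark 0.13.1 were used with the mm10 build. Mapping to near-identical V segments depends on how reads that fit several places were treated, and this can move both level and depth. A file was deposited per group, so which of the 2 samples of a group it holds, or whether it pools them, was not worked out.

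Methylated reads were taken as level times reads, rounded down. Gene windows (GENCODE M21 body with 500 bp on either side, chromosomes 1 to 19, at least 3 CpGs listed in all 4 libraries) were fitted with edgeR 4.0.16 in R 4.3.3. Methylation was fitted as methylated and unmethylated counts with a term per library and terms for cell type and sex, and depth as reads on sex and cell type with the reads at shared autosomal CpGs as library size. P-values were adjusted by Benjamini-Hochberg over all 49569 windows, and edgeR's adjusted p is the one printed. Reads that cross several CpGs are counted once at each, so counts are not independent molecules. No group had a second library, so no SD is given. Copies were searched with blastn 2.17.0. The level of a single segment is the methylated share of the reads summed over its CpGs, so CpGs with more reads weigh more. The levels of gene groups are medians over segments, and pooled levels are sums of reads.

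The members, gene lists (V families, V genes and pseudogenes, D, J, constant and Adam6 genes, V(D)J joining genes, kappa and T cell receptor alpha V segments, B and T cell markers) and tests were chosen with earlier results of these data known. The distances from the segment end, the shared CpGs and the letters GGGGGCGC were chosen after the profile had been seen. Segments named were the 5 nearest to and farthest from J, the 5 with the largest methylation difference each way, the 3 with the lowest and the 3 with the highest depth ratio, and 10 known for their use or specificity. The other called segments, Ighv1-19, and the segments that share a CpG were named after their values were seen. On simulated data for the same 49569 windows, the methylation fit called 73 of 100 windows changed by 30 points, 100 of 100 changed by 50 points and 0 of 49369 unchanged ones. The depth fit called 64 of 100 at a log2 change of 1, 100 of 100 at 1.5 and 6 of 49369 unchanged ones. The changed windows came from a set range of reads, lay around a middle methylation level, and all counts were drawn independently. These shares therefore do not give the recovery in V segments with few reads or with levels near either end of the scale. Alternatives were other CpG and read minimums, windows, scalings, limma 3.58.1, DESeq2 1.42.0 and leaving out each library.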

Additional observations from a re-analysis of the deposited data

How the results depend on the processing

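No paired analysis was possible because the replicate numbers in the labels differ between all groups and each group has 1 library, so sex was the only link between B and T libraries. Each file lists CpGs with at least 5 reads, which leaves out the least covered CpGs of proximal segments in B cells, and where 1 library was left out the lone library of its cell type was assumed to vary like the rest. The 10 segments called higher in B became 6 with at least 5 CpGs, 5 with limma, 16 with no minimum difference, 6 without near-identical copies and 7 to 12 without 1 library. The 4 called lower became 1 with at least 5 CpGs, 1 in the gene body alone, 8 with no minimum difference, 2 without copies and 3 to 5 without 1 library. The 41 called lower in depth became 27 with at least 5 CpGs, 15 in the gene body alone and 7 to 27 without 1 library. Counting unlisted CpGs gave 42 (as 0 reads) and 58 (as 4 reads), with more segments tested. DESeq2's filter on low counts left all 143 without an adjusted p, and without that filter 1 was called. The settings without copies and without that filter were added after seeing the data. With no minimum difference, 11087 of all 49569 windows were called for methylation. Fewer segments or CpGs are tested with a higher minimum, in the body alone and without copies, and the cause of the other changes was not tested.

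The median B minus T level of 1.46 points became 3.52 with at least 10 reads per CpG, 1.71 with at least 5 CpGs, -0.51 in the gene body alone, 1.14 with 1000 bp on either side, 0.539 as an unweighted mean of CpGs, 0.717 from each library's own CpGs, 0.803 without copies and 0.889 to 2.07 without 1 library, so its sign is not settled. The median depth ratio of 0.681 became 0.689 with TMM scaling, 0.707 scaled to chromosome 12 outside the locus, 0.644 and 0.656 with unlisted CpGs as 0 and 4 reads, 0.714 with at least 5 CpGs, 0.643 in the gene body alone, 0.673 without copies and 0.645 to 0.715 without 1 library. In the group nearest to J the ratio of 0.464 became 0.314 and 0.426 with unlisted CpGs as 0 and 4 reads and 0.421 to 0.472 without 1 library. In the farthest group the ratio of 0.892 became 0.893 to 1.00 without 1 library.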
